A study of Mus musculus with 12 samples.

Results

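The nuclear genes of respiratory complexes II to V encode most of the machinery that turns the electrons of fuel oxidation into ATP in the inner mitochondrial membrane. Complex II (succinate dehydrogenase) feeds electrons from succinate to ubiquinone, complex III (cytochrome bc1) passes them to cytochrome c, complex IV (cytochrome c oxidase) passes them to oxygen, and complex V (ATP synthase) uses the proton gradient so built to make ATP. The adult ventricle works almost without pause and meets its energy demand chiefly by this route, so its cardiomyocytes are densely packed with mitochondria. Complex II is encoded wholly in the nucleus, whereas complexes III, IV and V also hold subunits made from mitochondrial DNA, so their assembly draws on both genomes. Striated muscle also uses its own isoforms of several complex IV subunits.

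The genes were taken from the count table by name: every protein-coding gene called Sdha to Sdhd, Cyc1, or a name starting with Uqcr, Cox4 to Cox8 or Atp5. This gave 48 of the 40594 genes in the table, with 4 in complex II, 9 in complex III, 18 in complex IV and 17 in complex V. The name rule also takes in Cox7a2l, a factor of supercomplex assembly, and Atp5s and Atp5sl, which are not structural subunits of the ATP synthase. After the filter on low counts, 46 of the 48 genes were tested among 15494 genes in all. The other two were testis-type isoforms of complex IV: Cox8c had 0 reads in all 12 libraries, and Cox7b2 had at most 3 reads in a library.

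RNA came from 1 of the 2 heart chambers that pump into the arteries, the left (LV) or the right ventricle (RV), in adult mice whose hearts were labelled control or Wnt LOF (loss of function in Wnt signalling), with 3 libraries in each of the 4 groups. Wnt proteins are secreted signals, and beta-catenin carries the canonical signal to the nucleus. The labels name neither the gene and allele altered, nor a promoter or Cre that drives the change, nor strain or sex, and nothing in them states that libraries of 1 group are separate animals. The p-values therefore measure only library-to-library spread, which may in part be technical. The series title sets the question of how the 2 ventricles differ in Wnt-dependent gene programmes and arrhythmia.

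Library totals ran from 13274922 to 19173391 reads, and 4.62% to 8.29% of them fell on mitochondrially encoded genes. Markers of cardiomyocytes were high throughout, with Myh6, the adult cardiac myosin heavy chain, at 33745 to 39633 CPM (read counts scaled to a common library size with TMM factors). Of the 13 mitochondrially encoded subunits only 7 passed the filter on low counts. The genes mt-Nd3, mt-Nd4l, mt-Co2, mt-Atp6 and mt-Atp8 had 0 CPM in all 12 libraries, and mt-Co3 had at most 0.05 CPM. Values for mitochondrially encoded genes therefore leave these subunits out. The beta-catenin gene Ctnnb1 was at 352 to 532 CPM in the 6 Wnt LOF libraries and at 426 to 598 CPM in the 6 control libraries, so the 2 ranges overlapped. Some libraries stood apart from their labels. Wif1, a secreted Wnt inhibitor, was at 12 to 18.4 CPM in the control RV libraries and at 2.62 to 3.18 CPM in the control LV libraries. It was at 13.5 CPM in the library labelled WntLOF LV 1 and at 2.55 CPM in the library labelled WntLOF RV 1, which is opposite to these labels. The lowest Ctnnb1 level of a control library was 426 CPM in that labelled control LV 2, and the highest of a Wnt LOF library was 532 CPM in that labelled WntLOF LV 2, above 4 of the 6 control libraries. The Ctnnb1 level thus did not separate the libraries by label. The library labelled WntLOF RV 3 held more of the atrial muscle genes Myl7 (10.2 CPM, at most 1.26 elsewhere) and Myl4 (10.7 CPM, at most 2.86 elsewhere). In every group only library 3 had reads of the Y-linked gene Ddx3y above 1 CPM (102 to 136 CPM, against at most 0.772 CPM in the others). Library 3 thus differed in Y-linked reads from libraries 1 and 2 of its group. Values without these libraries are given beside some of the results that rest on them.

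Promoter windows from 250 bases before to 50 bases after a start were taken from RefSeq (GRCm38.p6), and 37 of the 48 genes had at least 1 of them, 41 windows in all. Both strands were searched for the letters of 4 motifs of factors known to act on respiratory genes. CCGGAAG, a core bound by ETS factors such as GABPA, was in the windows of 12 genes, and 29.3% of the windows held it against 8.86% of all 32851 RefSeq windows. GCGCATGC, a core of the NRF1 motif, was in those of 7 genes, and 17.1% of the windows held it against 2.71% of all. AAGATGGC, bound by YY1, was in those of 4 genes, 12.2% of windows against 2.75% of all. TCAAGGTCA, an oestrogen-related receptor (ERR) element, was in those of 2 genes, Atp5g3 and Sdhd, 4.88% of windows against 0.423% of all. At least 1 of the motifs was in 18 genes and none in 19. The windows also had a higher GC content, with a median of 56.3% against 52.7% of all windows. A match of letters is a description and does not show a bound site.

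The windows of 4 genes are shown because their genes mark the range of behaviour in the results that follow. Atp5g3 (chr2:73911277-73911576, minus strand), Atp5o (chr16:91931581-91931880, minus strand) and Uqcr11 (chr10:80406772-80407071, minus strand) varied most closely with the other genes of the complexes among those with a window, and Sdha (chr13:74350191-74350490, minus strand) did not vary with them. Capitals mark the ERR letters in Atp5g3 and the ETS letters and, further on, the NRF1 letters in Uqcr11, on whichever strand they were found. The windows of Atp5o and Sdha hold none of the 4 motifs. All are written 5′ to 3′ along the gene's strand.
Atp5g3: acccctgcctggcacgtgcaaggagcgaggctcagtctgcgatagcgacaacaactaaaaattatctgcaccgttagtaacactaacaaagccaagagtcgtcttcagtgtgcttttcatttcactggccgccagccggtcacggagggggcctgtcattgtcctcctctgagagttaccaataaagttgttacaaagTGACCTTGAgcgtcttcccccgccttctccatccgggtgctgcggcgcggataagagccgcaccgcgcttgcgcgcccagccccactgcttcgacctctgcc
Atp5o: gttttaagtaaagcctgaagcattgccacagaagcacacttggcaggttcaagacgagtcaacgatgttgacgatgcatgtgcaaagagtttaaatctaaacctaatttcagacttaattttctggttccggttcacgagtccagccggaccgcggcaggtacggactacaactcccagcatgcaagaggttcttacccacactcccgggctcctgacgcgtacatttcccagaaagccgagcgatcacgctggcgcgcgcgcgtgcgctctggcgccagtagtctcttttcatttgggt
Uqcr11: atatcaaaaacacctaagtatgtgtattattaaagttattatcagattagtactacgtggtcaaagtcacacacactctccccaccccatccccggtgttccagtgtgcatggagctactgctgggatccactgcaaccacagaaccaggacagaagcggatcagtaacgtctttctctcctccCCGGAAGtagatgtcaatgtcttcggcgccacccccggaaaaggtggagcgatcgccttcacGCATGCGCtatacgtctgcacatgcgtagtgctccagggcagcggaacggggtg
Sdha: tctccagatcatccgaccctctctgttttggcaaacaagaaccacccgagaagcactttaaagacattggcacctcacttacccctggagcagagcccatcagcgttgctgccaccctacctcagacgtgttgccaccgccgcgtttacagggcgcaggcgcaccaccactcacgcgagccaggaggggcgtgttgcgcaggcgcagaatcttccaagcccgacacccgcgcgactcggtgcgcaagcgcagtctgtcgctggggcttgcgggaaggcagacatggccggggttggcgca

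Levels per length spanned a wide range. Length was the union of all annotated exons of a gene, which can exceed the length of the transcripts present. Per kb of summed exon, the mean over all 12 libraries was highest for Atp5a1 (1894 CPM per kb) and Atp5b (1194 CPM per kb), the alpha and beta subunits that form the catalytic head of the ATP synthase. Next came the muscle isoforms of complex IV, Cox6a2 (1021 CPM per kb), Cox7a1 (952 CPM per kb) and Cox8b (921 CPM per kb), ahead of Cox4i1 (671 CPM per kb), the widely expressed isoform of subunit IV. The Rieske iron-sulfur protein Uqcrfs1 was at 457 CPM per kb, cytochrome c1 (Cyc1) at 341, the core protein Uqcrc1 at 373, the iron-sulfur subunit of complex II Sdhb at 313 and its flavoprotein Sdha at 217 CPM per kb. The lowest were Cox6b2, an isoform known from testis, at 0.643 CPM per kb, Atp5l at 0.705 and Atp5g2 at 1.31 CPM per kb.

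**Figure D1:**
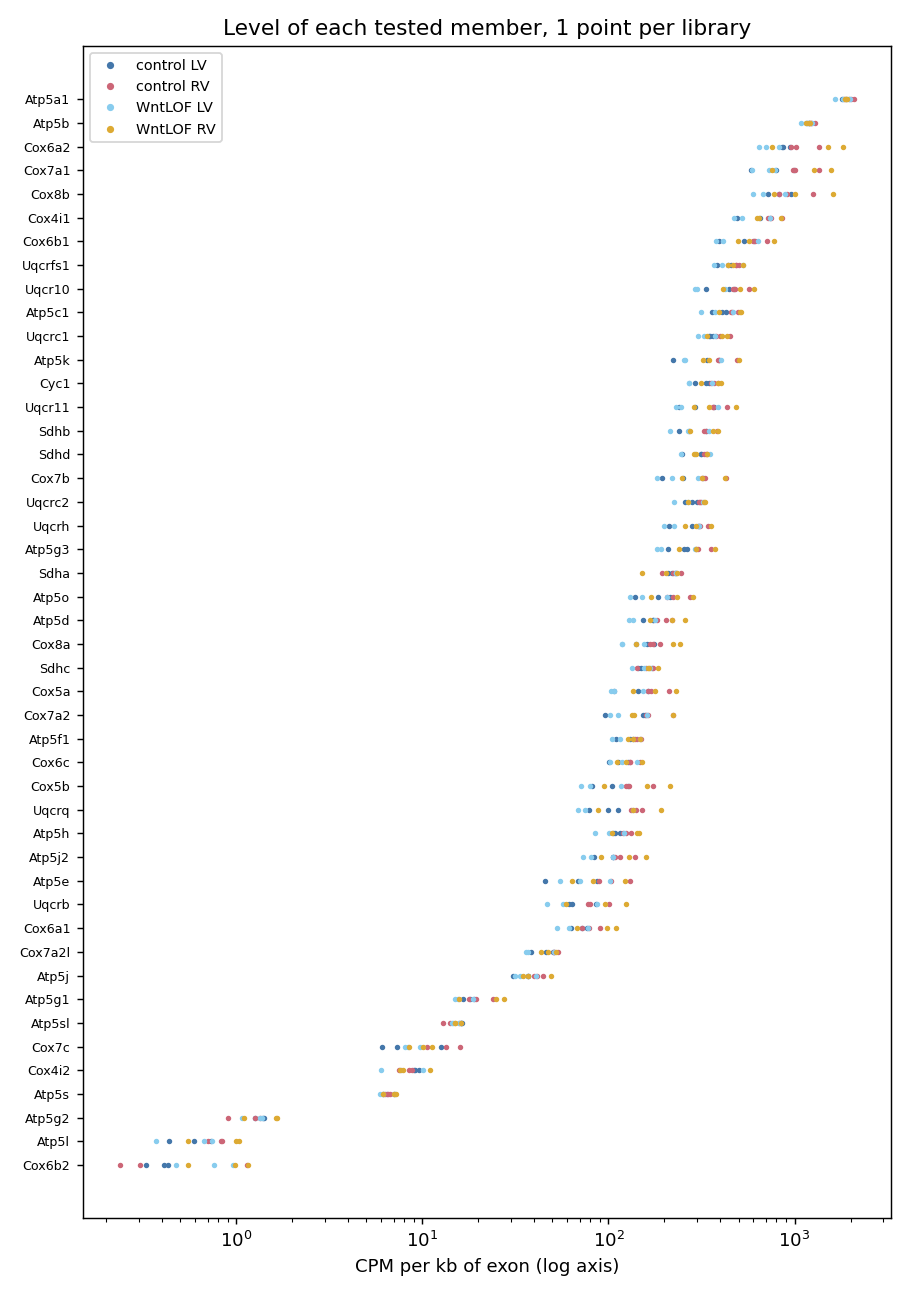
Level of each of the 46 tested genes in CPM per kb of exon (log axis), 1 point per library, coloured by group. Atp5a1 (mean 1894) and Atp5b (1194) are at the top, and Cox6b2 (0.643) is at the bottom. The points of a gene lie close together beside the whole range of the genes, but the points of genes near in rank overlap.

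Several low values belong to core subunits. Atp5l, the g subunit of the ATP synthase, had only 36 to 111 reads in a library, Cox7c, a core subunit of complex IV, had 91 to 276, and Atp5g2, 1 of 3 genes for the c ring, had 23 to 46. These genes have near-identical copies or pseudogenes elsewhere in the genome, and since the sources used here do not state how shared reads were counted, their levels are uncertain. In sum the 48 genes took 2.19% of the reads in the library labelled WntLOF LV 2 and 3.04% in that labelled WntLOF RV 3, with the others between.

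The genes moved together from library to library. The median deviation of the 46 genes from their own means, on the log2 CPM scale, was 0.09, -0.05 and -0.30 in control LV 1 to 3 and 0.10, 0.30 and 0.10 in control RV 1 to 3. In the libraries labelled WntLOF LV 1 to 3 it was -0.32, -0.45 and 0.10, and in those labelled WntLOF RV 1 to 3 it was -0.14, 0.17 and 0.41. In WntLOF LV 2 and also in WntLOF RV 1 only 2 of the 46 genes were above their mean, and in control RV 2 and WntLOF RV 3 it was 44. The LV and RV ranges of these medians overlapped in Wnt LOF hearts, and in control hearts they were separate by a narrow margin. The median SD within groups was 0.256 on the log2 CPM scale for these genes and 0.196 for all genes tested.

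Over the libraries the median deviation ran from -0.48 to 0.55 in complex IV and from -0.27 to 0.14 in complex II. In the library labelled WntLOF RV 3 the median deviation was 0.55 in complex IV, 0.38 in complex V, 0.36 in complex III and 0.10 in complex II. In WntLOF LV 2 it was -0.48 in complex IV, -0.45 in complex V, -0.48 in complex III and -0.27 in complex II. Over the 12 libraries, the median Pearson correlation between pairs of genes was 0.911 within complex III, 0.815 within complex IV, 0.735 within complex V and 0.213 within complex II. These are descriptions, since the libraries share group, depth and scaling factors. Atp5g3, a c ring gene, had the highest median correlation with the other genes (0.916), followed by Atp5o (0.914), the stalk subunit OSCP, Uqcrq (0.913) and Uqcr11 (0.909), both small subunits of complex III. At the other end were Sdha (-0.318), Atp5sl (-0.077) and Atp5g2 (0.0336).

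Other gene groups had similar profiles over the libraries. In control LV 3 the median deviation was -0.26 for 79 genes of cytosolic ribosomal proteins, -0.26 for 38 nuclear genes of complex I and -0.21 for 247 other protein-coding genes with under 1 kb of exon. In WntLOF RV 3 these values were 0.28, 0.46 and 0.38. The median of the 7 mitochondrially encoded genes tested had the sign of the complexes in 6 of 12 libraries, such as WntLOF LV 1 (-0.49) and WntLOF RV 3 (0.34), and the opposite sign in the others, such as control LV 3 (0.50) and WntLOF LV 2 (0.12). The 9 cardiomyocyte markers stayed between -0.12 and 0.21. The part of transcript length, RNA quality or cell content in the shared profile was not tested.

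**Figure D2:**
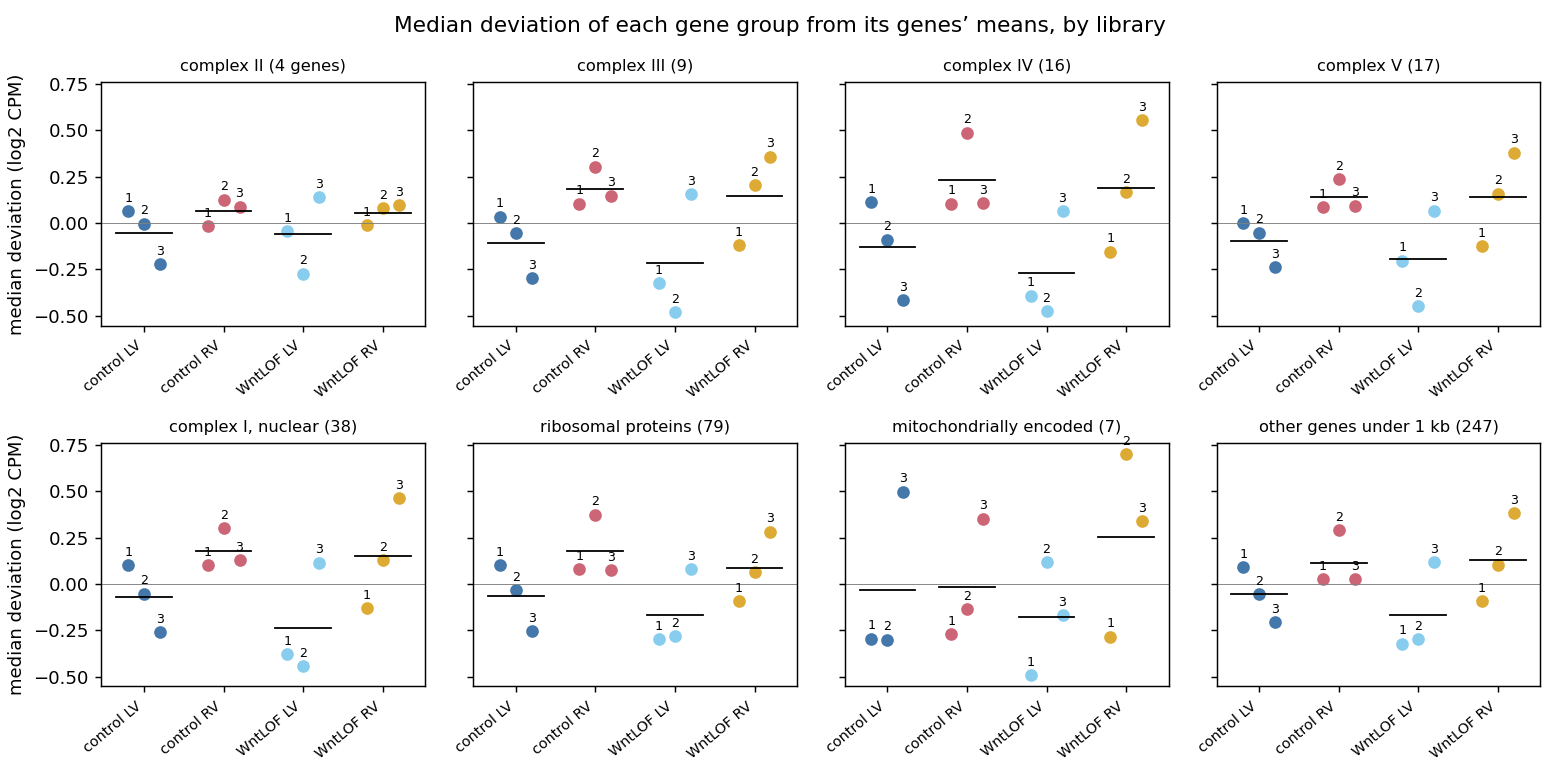
Median deviation of each gene group from its genes' means over the 12 libraries (log2 CPM), 1 point per library numbered by replicate, with the group mean as a bar. Complexes III, IV and V, complex I, the ribosomal protein genes and other short genes have similar profiles. The 7 mitochondrially encoded genes tested share the sign of the complexes in 6 of 12 libraries, and in control LV 3 they are at 0.50.

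The first comparison set the RV against the LV in control hearts. On average most genes of the complexes were at higher levels in the RV, and none passed the test. The summed level of the 48 genes averaged 25523 ± 1877 CPM in the LV against 28988 ± 978 CPM in the RV (each SD, n = 3), and the libraries did not overlap (23430 to 27058 against 27967 to 29916 CPM). The log2 fold change was above 0 for 42 of the 46 genes, against 51% of all genes tested, and its median was 0.27, against 0.00393 over all genes. In 20 genes every RV library was above every LV library (6.68% of all genes), and in 2, Atp5sl and Cox4i2, every one was below (5.92% of all genes). By edgeR's quasi-likelihood test 0 of the 46 genes had an adjusted p under 0.05 (0% of all genes tested), 2 had an unadjusted p under 0.05, 1 higher and 1 lower (4.35%, against 4.89% of all genes), and DESeq2 called 0. Without control LV 2, 0 of the 46 genes had an unadjusted edgeR p under 0.05 (4.93% of all genes).

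In complex II the 4 genes differed. Sdhb had 748, 609 and 537 CPM in the LV libraries and 751, 859 and 729 CPM in the RV libraries, with a log2 fold change of 0.30 (SE 0.18). The LV library numbered 1 lay inside the RV range. Sdha, the catalytic flavoprotein, had 945, 860 and 908 CPM in the LV and 796, 919 and 1017 CPM in the RV, with a log2 fold change of 0.01 (SE 0.134). Its groups overlapped fully, and its sign turned with total-count scaling (-0.01). Of the membrane anchors, Sdhc was at 0.03 (SE 0.108) and Sdhd at 0.19 (SE 0.128), the latter without overlap.

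All 9 genes of complex III were above 0, with a median of 0.27, and 6 did not overlap. Uqcrq, the small subunit also called ubiquinone-binding protein QP-C, had 206, 183 and 144 CPM in the LV and 241, 276 and 258 CPM in the RV, with a log2 fold change of 0.54 (SE 0.303). Every RV library was above every LV library, and the LV libraries were far apart from each other. The core protein Uqcrc1 had 1507, 1428 and 1460 CPM in the LV and 1650, 1573 and 1859 CPM in the RV (log2 fold change 0.21, SE 0.111). Uqcrfs1 had 624, 600 and 523 CPM in the LV and 658, 688 and 659 CPM in the RV (0.20, SE 0.124). Cyc1, which hands electrons to cytochrome c, had 717, 750 and 628 CPM in the LV and 771, 796 and 834 CPM in the RV (0.20, SE 0.128). None of these 3 overlapped between the ventricles, and each difference was under 2 of its standard errors.

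Complex IV had a median of 0.33, with 15 of 16 genes above 0. Cox7c had the second highest fold change of the expressed genes, with 14.2, 8.28 and 6.88 CPM in the LV and 15.2, 18.0 and 12 CPM in the RV. Its log2 fold change was 0.61 (SE 0.232, unadjusted p = 0.0207, edgeR adjusted p = 0.922), and LV library 1 lay inside the RV range. Cox4i1 had 1138, 1005 and 757 CPM in the LV and 1110, 1335 and 1156 CPM in the RV (0.31, SE 0.187). Cox5a, a nuclear subunit on the matrix side, had 344, 302 and 224 CPM in the LV and 355, 445 and 343 CPM in the RV (0.39, SE 0.219). Both overlapped because LV library 1 was high. Cox4i2, the isoform known for its response to low oxygen, had 7.15, 7.06 and 7.56 CPM in the LV and 5.91, 6.69 and 6.92 CPM in the RV (-0.16, SE 0.191), with every RV library lower.

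In complex V 14 of 17 genes were above 0, with a median of 0.24. Atp5e, the epsilon subunit of the central stalk, had the highest log2 fold change of the expressed genes, 0.68 (SE 0.311). It had 152, 121 and 80.0 CPM in the LV and 181, 228 and 156 CPM in the RV, without overlap. Atp5g3 had 578, 556 and 456 CPM in the LV and 643, 771 and 658 CPM in the RV (0.38, SE 0.19), also without overlap. The 2 most abundant genes, the catalytic head subunits, had small differences. Atp5a1 had 5913, 6182 and 5655 CPM in the LV and 6285, 5750 and 6531 CPM in the RV (0.06, SE 0.0927). Atp5s was at -0.00027 (SE 0.113), the value nearest to 0. Atp5b had 5081, 5041 and 4931 CPM in the LV and 5191, 5167 and 5461 CPM in the RV (0.07, SE 0.0835). Atp5sl, which is not an ATP synthase subunit, had 48.9, 49.2 and 48.7 CPM in the LV and 39.1, 42.3 and 47.5 CPM in the RV (-0.19, SE 0.0837, unadjusted p = 0.0399, edgeR adjusted p = 0.922). Atp5g2 had the lowest value of all, -0.20 (SE 0.231).

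Libraries of equal number in the 2 ventricles of control hearts deviated together, so the comparison was also made within numbers. The median RV minus LV difference of the 46 genes, on the log2 CPM scale, was 0.03 in pair 1 (31 genes higher in the RV), 0.38 in pair 2 (42 genes) and 0.39 in pair 3 (41 genes). Pair 1 was close to 0, and pairs 2 and 3 were alike. With the replicate block and control hearts alone, edgeR called 2 of the genes, Uqcrq (log2 fold change 0.55, SE 0.104, adjusted p = 0.022) and Atp5g3 (0.38, SE 0.0885, adjusted p = 0.0339). In that fit 0.96% of 14899 genes were called higher and 1.23% lower, against 2 and 0 of the 45 genes of the complexes it tested. Without pair 2, which holds the library labelled control LV 2, the adjusted p was 0.154 for Uqcrq and 0.192 for Atp5g3, and no gene of the complexes was called. In the replicate block over all 12 libraries the adjusted p of both was 0.514, and 22 genes had an unadjusted p under 0.05 (47.8%, against 9.29% of all genes). Without control LV 2 and the libraries labelled WntLOF 1 the median stayed at 0.27, with 41 of 46 genes above 0. Leaving out control LV 3, the lowest control library, took the median to 0.17.

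The second comparison set the RV against the LV in Wnt LOF hearts. The means were again mostly higher in the RV, most of all for the muscle isoforms of complex IV, Cox5b and the widely expressed Cox8a. Again no gene passed the test in all 12 libraries. The summed level of the 48 genes averaged 24380 ± 3319 CPM in the LV against 28336 ± 3113 CPM in the RV (each SD, n = 3), and the 2 ranges overlapped. It was 24801 ± 4579 against 29985 ± 1753 CPM without both libraries labelled WntLOF 1 (each SD, n = 2), and the RV averaged 26892 ± 2621 CPM (SD, n = 2) without WntLOF RV 3. The log2 fold change was above 0 for 45 of 46 genes, against 49.8% of all genes, with a median of 0.31 against -0.0006 over all genes. No gene was free of overlap (3.36% of all genes were higher and 3.7% lower without overlap). By edgeR's quasi-likelihood test 0 genes were called (0% of all genes tested), 15 had an unadjusted p under 0.05, all higher in the RV (32.6%, against 3.22% of all genes higher and 1.59% lower), and DESeq2 called 0. Without the library labelled WntLOF RV 3 it was 4 of the 46 genes (8.7%, against 3.21% of all genes).

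Cox6a2, the heart and skeletal muscle isoform of subunit VIa, had the highest value. It had 437, 475 and 559 CPM in the libraries labelled WntLOF LV 1 to 3 and 516, 1239 and 1031 CPM in those labelled WntLOF RV 1 to 3. RV libraries 2 and 3 were far above all LV libraries, and RV library 1 was among them. Its log2 fold change was 0.92, a 1.89-fold difference (SE 0.259, unadjusted p = 0.0045, edgeR adjusted p = 1). Without the library labelled WntLOF RV 1 it was 1.20 (SE 0.151, adjusted p = 0.0444), and Cox6a2 was then the only gene called of 15704 tested (0.00637%). Without both libraries labelled WntLOF 1 it was 1.14 (SE 0.168) with an adjusted p of 0.12. In the control hearts Cox6a2 had 583, 587 and 642 CPM in the LV and 648, 925 and 693 CPM in the RV, with a log2 fold change of 0.32 (SE 0.258).

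The other muscle isoforms followed. Cox7a1 had 390, 315 and 420 CPM in the LV and 407, 680 and 843 CPM in the RV (log2 fold change 0.78, SE 0.264), and Cox8b had 243, 216 and 321 CPM against 280, 360 and 580 CPM (0.64, SE 0.26). Their widely expressed counterparts were also higher on average, with Cox6a1 at 0.52 (SE 0.176), Cox7a2 at 0.40 (SE 0.264) and Cox8a at 0.63 (SE 0.177). Cox5b, a zinc-binding subunit, had 126, 113 and 184 CPM in the LV and 151, 255 and 340 CPM in the RV (0.82, SE 0.298). In each of these genes the library labelled WntLOF RV 1 lay inside the LV range. The log2 fold change without both libraries labelled WntLOF 1 was 1.05 for Cox7a1, 0.81 for Cox8b and 1.004 for Cox5b. Without the library labelled WntLOF RV 3 it was 0.53 for Cox7a1, 0.29 for Cox8b and 0.52 for Cox5b, and 0.83 for Cox6a2. The widely expressed Cox8a, Cox6a1 and Cox7a2 were at 0.77, 0.58 and 0.465 without both libraries labelled WntLOF 1. Without WntLOF RV 3 these were at 0.55, 0.365 and 0.12, so Cox8a was then above Cox7a1, Cox8b and Cox5b. All stayed above 0, and their size rested on these libraries.

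Among the core subunits the differences were smaller. Cox4i1 had 806, 735 and 1149 CPM in the LV and 976, 1001 and 1316 CPM in the RV (0.29, SE 0.187), and Cox5a had 224, 217 and 322 CPM against 285, 375 and 483 CPM (0.58, SE 0.219). Without WntLOF RV 3 these were 0.14 for Cox4i1 and 0.37 for Cox5a. Uqcrc1 had 1355, 1259 and 1539 CPM in the LV and 1404, 1787 and 1692 CPM in the RV (0.23, SE 0.111), with log2 fold changes of 0.13 (SE 0.124) for Uqcrfs1 and 0.30 (SE 0.128) for Cyc1. Atp5a1 (0.07, SE 0.0927) and Atp5b (0.03, SE 0.0835) again had small differences, as did Atp5sl (0.04, SE 0.0836) and Sdhd (0.05, SE 0.128), and the sign of Atp5b turned with total-count scaling (-0.03). Sdha was the single gene below 0, with 949, 957 and 952 CPM in the LV and 958, 626 and 843 CPM in the RV (-0.24, SE 0.135). Its LV libraries were nearly equal, and RV library 2 was the lowest of all 12. Its value was -0.37 (SE 0.153) without both libraries labelled WntLOF 1 and -0.27 (SE 0.158) without WntLOF RV 3. Sdhb, its partner in the complex, was at 0.31 (SE 0.18).

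The equal-numbered pairs had median RV minus LV differences of 0.16 (40 of 46 genes higher), 0.58 (45 genes) and 0.28 (39 genes) on the log2 CPM scale. Pair 1 is the pair whose Wif1 level was opposite to its labels, and its difference would change sign if its labels were exchanged. Without both libraries labelled WntLOF 1 the median was 0.41, with 45 of 46 genes above 0 and 21 at an unadjusted p under 0.05 (45.7%, against 8.86% of all genes). Without the library labelled WntLOF RV 3, which held the atrial genes, it was 0.18 with 41 genes above 0, and it was 0.50 without WntLOF LV 3 and 0.22 without WntLOF LV 2. With the replicate block in these hearts alone no gene of the complexes was called, and 0% of all genes were called higher and 0.00669% lower. In the replicate block over all 12 libraries no gene of the complexes was called. There 29 genes had an unadjusted edgeR p under 0.05, all higher in the RV (63%, against 8.21% of all genes).

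**Figure D3:**
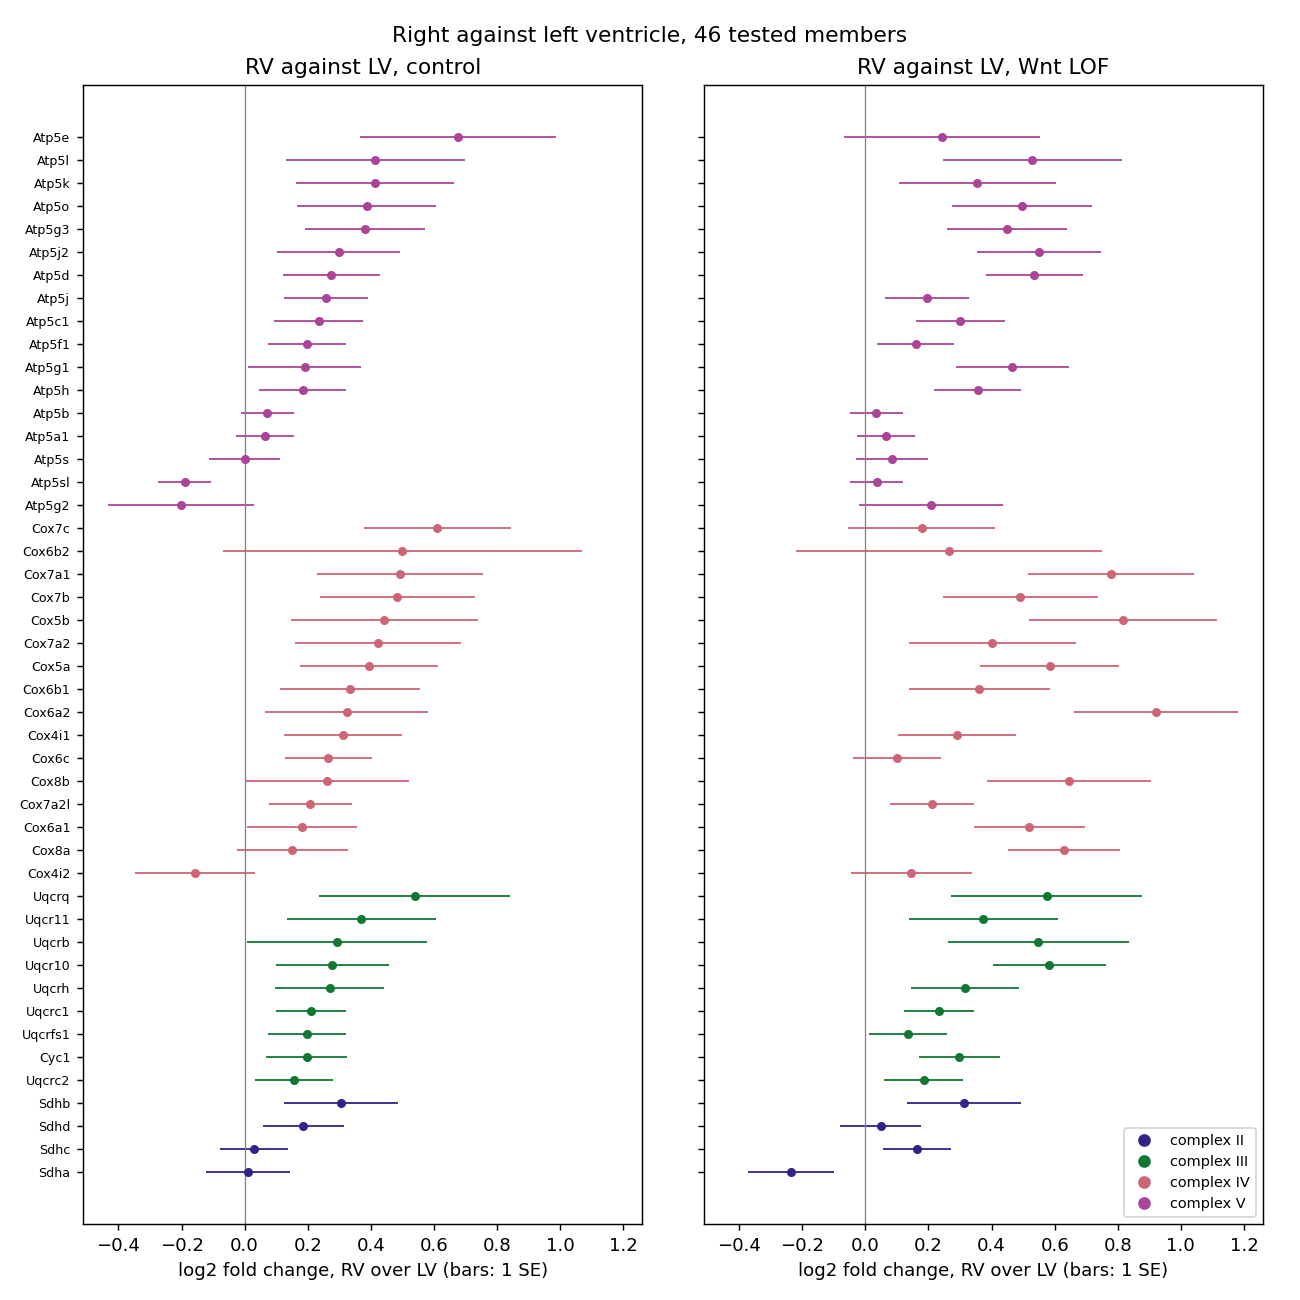
Log2 fold change of the RV over the LV for the 46 tested genes in control hearts (left) and Wnt LOF hearts (right), with bars of 1 SE, ordered by complex. In control hearts 42 genes lie above 0 and in Wnt LOF hearts 45. Cox6a2 is the highest in Wnt LOF hearts at 0.92, and Sdha is the only gene below 0 there.

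Wnt LOF was then compared with control within each ventricle, the comparisons that ask what the pathway's loss does. In the LV the means were slightly lower in Wnt LOF, with 37 of 46 genes below 0 (49.1% of all genes were above 0) and a median log2 fold change of -0.10. The values rested on single libraries: the median was 0.02 without the library labelled WntLOF LV 2, -0.25 without WntLOF LV 3 and -0.04 without both libraries labelled WntLOF 1. Other short genes were also lower. All tested protein-coding genes with under 1 kb of exon had a median of -0.11, against -0.16 for the 12 genes of the complexes in that class. For 1 to 2 kb these medians were -0.05 and -0.10, and over 4 kb 0.005 and -0.03. The part of length was not tested. By edgeR 0 genes were called (0% of all genes), 0 had an unadjusted p under 0.05, and DESeq2 called 0. Sdha and Cox6b2 were higher without overlap, and Cox6a2 and Atp5sl lower, with 3.95% of all genes in each direction. Cox6b2 had only 4 to 20 reads in a library (log2 fold change 0.92, SE 0.542). Cox6a2 had the lowest value, -0.30 (SE 0.258), followed by Uqcr10 at -0.29 (SE 0.179) and Cox8a at -0.29 (SE 0.176). The highest of the expressed genes were Atp5e at 0.17 (SE 0.311), Cox6c at 0.08 (SE 0.139) and Sdha at 0.08 (SE 0.134). Sdha had 945, 860 and 908 CPM in control and 949, 957 and 952 CPM in Wnt LOF, so the groups were separate by a narrow margin.

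In the RV 20 genes were above 0 and 26 below (50.3% of all genes were above 0), with a median of -0.01. Without the library labelled WntLOF RV 1 the median was 0.12 with 36 genes above 0, and without WntLOF RV 3 it was -0.13 with 9 genes above 0. By edgeR 0 genes were called (0% of all genes), 0 had an unadjusted p under 0.05, and DESeq2 called 0. Without both libraries labelled WntLOF 1, 5 of the 46 genes had an unadjusted edgeR p under 0.05 (10.9%, against 4.65% of all genes). Cox6a2 was then at 0.59 (SE 0.15, unadjusted p = 0.00219, edgeR adjusted p = 0.99). Without WntLOF RV 3, 0 of the 46 had an unadjusted p under 0.05 (2.3% of all genes). In all 12 libraries no gene was higher without overlap (3.61% of all genes), and 1 was lower (3.94% of all genes). This was Atp5b, with 5191, 5167 and 5461 CPM in control and 4893, 5122 and 5075 CPM in Wnt LOF (-0.07, SE 0.0835). Cox7c had the lowest value, -0.43 (SE 0.231), followed by Atp5e at -0.26 (SE 0.31) and Sdha at -0.17 (SE 0.134). Atp5g2 (0.32, SE 0.23), Cox6a2 (0.30, SE 0.257) and Cox6a1 (0.20, SE 0.175) were the highest of the expressed genes. In the authors' deposited table for the LV, 40 of the 46 genes were below 0 with a median log2 fold change of -0.13, and in the authors' deposited table for the RV 35 were above 0 with a median of 0.05. The lowest adjusted p of any of the genes in the authors' deposited tables was 0.8411 for the LV and 0.9177 for the RV.

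The interaction asks whether the RV to LV difference was itself different in Wnt LOF hearts. By edgeR 0 genes were called (0% of all genes), 0 of the 46 had an unadjusted p under 0.05, and DESeq2 called 0. Of the 46 genes 33 were above 0 (50.9% of all genes), with a median of 0.06, but with total-count scaling it was 24 of 46 with a median of 0.01. Cox6a2 was the highest at 0.60 (SE 0.364), with Cox8a at 0.48 (SE 0.249) and Atp5g2 at 0.41 (SE 0.325). Cox7c (-0.43, SE 0.329), Atp5e (-0.43, SE 0.439) and Sdha (-0.25, SE 0.19) were the lowest. The difference of Cox6a2 between ventricles was thus not shown to depend on genotype. Without both libraries labelled WntLOF 1 its interaction was 0.81 (SE 0.215, unadjusted p = 0.00277, edgeR adjusted p = 1), and 3 of the 46 genes then had an unadjusted p under 0.05 (6.52%, against 1.84% of all genes). Without WntLOF RV 3 it was 0.51 (SE 0.392), and Atp5e was at -0.73 (SE 0.411). Since the 4 group comparisons share libraries in pairs, their medians are not separate results.

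Isoform choice was read from the share of reads each isoform took of its set in a library. Cox6a2 took 92.4% ± 1.04 (SD, n = 3) of Cox6a1 and Cox6a2 reads in the control LV and 93.0% ± 0.544 in the control RV. In Wnt LOF it took 91.6% ± 0.512 in the LV and 93.1% ± 1.57 in the RV. Cox7a1 took 76.8% ± 1.86 and 77.7% ± 0.0918 of Cox7a1 and Cox7a2 reads in the control LV and RV, and 76.2% ± 2.61 and 80.1% ± 3.84 in the Wnt LOF LV and RV. Cox8b took 75.2% ± 0.635 and 76.3% ± 2.98 of Cox8a and Cox8b reads in control, and 76.2% ± 1.33 and 75.9% ± 5.16 in Wnt LOF. The muscle isoforms therefore made up most of the reads of their sets in all 12 libraries. Cox4i2 took under 1% of Cox4 reads throughout, with group means of 0.541% to 0.771%.

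The 3 genes Atp5g1, Atp5g2 and Atp5g3 encode the same mature c subunit behind different import signals. Atp5g1 took 13.9%, 13.7% and 15.1% of their reads in the control LV libraries and 11.9%, 13.2% and 12.7% in the control RV libraries, which did not overlap. The difference of -1.61 percentage points had an exact two-sided permutation p of 0.1, the smallest that 3 against 3 libraries allow, and an adjusted p of 0.6 over 24 tests. The same p of 0.1 was reached by 3 other tests: the Cox4i2 share between ventricles in control (-0.23 percentage points) and between genotypes in the RV (0.085), and the Cox6b2 share of Cox6b1 and Cox6b2 reads between genotypes in the LV (0.124). In Wnt LOF hearts the share was 14.5% ± 1.66 in the LV and 14.3% ± 1.56 in the RV. None of the 24 exact permutation tests of isoform shares reached an adjusted p under 0.6, and the design could not give an unadjusted p under 0.1. The deposited table holds counts per gene, so isoforms of 1 gene were not analysed here.

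**Figure D4:**
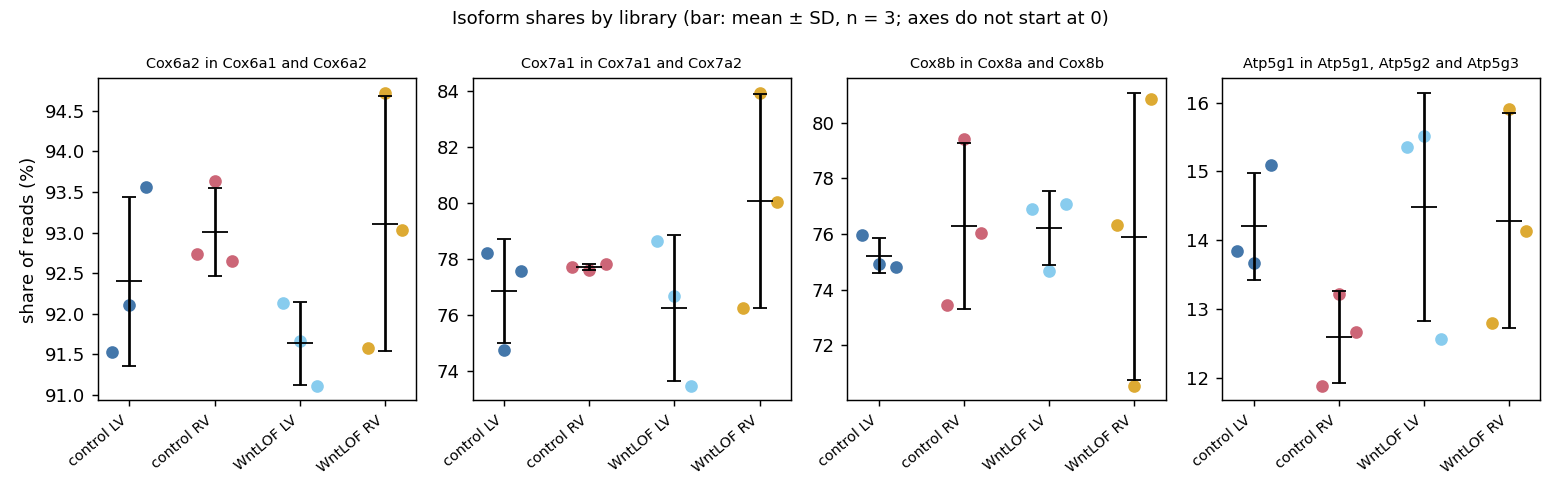
Share of reads (%) taken by 1 isoform in its set, 1 point per library in the order of replicate numbers, with mean ± SD (n = 3). The axes do not start at 0. Cox6a2 is above 91% in every library, and the Atp5g1 share is lower in the 3 control RV libraries (11.9% to 13.2%) than in the 3 control LV libraries (13.7% to 15.1%).

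The median difference between ventricles was higher in classes of shorter genes. In control hearts, all tested protein-coding genes with under 1 kb of exon had a median log2 fold change of 0.19 (260 genes), against 0.31 for the 12 genes of the complexes in that class. For 1 to 2 kb these medians were 0.08 and 0.29, for 2 to 4 kb 0.01 and 0.23, and for over 4 kb -0.01 and 0.19 (6 genes). In Wnt LOF hearts they were 0.33 and 0.53 under 1 kb, 0.13 and 0.30 for 1 to 2 kb, 0.03 and 0.19 for 2 to 4 kb, and -0.02 and 0.20 over 4 kb. The genes of the complexes had the higher median in each class in both genotypes, also without both libraries labelled WntLOF 1, WntLOF RV 3 or control LV 2. Since length is the union of all annotated exons, genes of a class are not matched by the length of the transcripts present. Under 1 kb the Wnt LOF medians were 0.15 and 0.28 without WntLOF RV 3 and 0.34 and 0.61 without both libraries labelled WntLOF 1. Across the 46 genes the Spearman correlation of exon length and log2 fold change was -0.30 in control hearts and -0.441 in Wnt LOF hearts, a description over genes that share the same libraries. The part of length in the results was not tested.

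**Figure D5:**
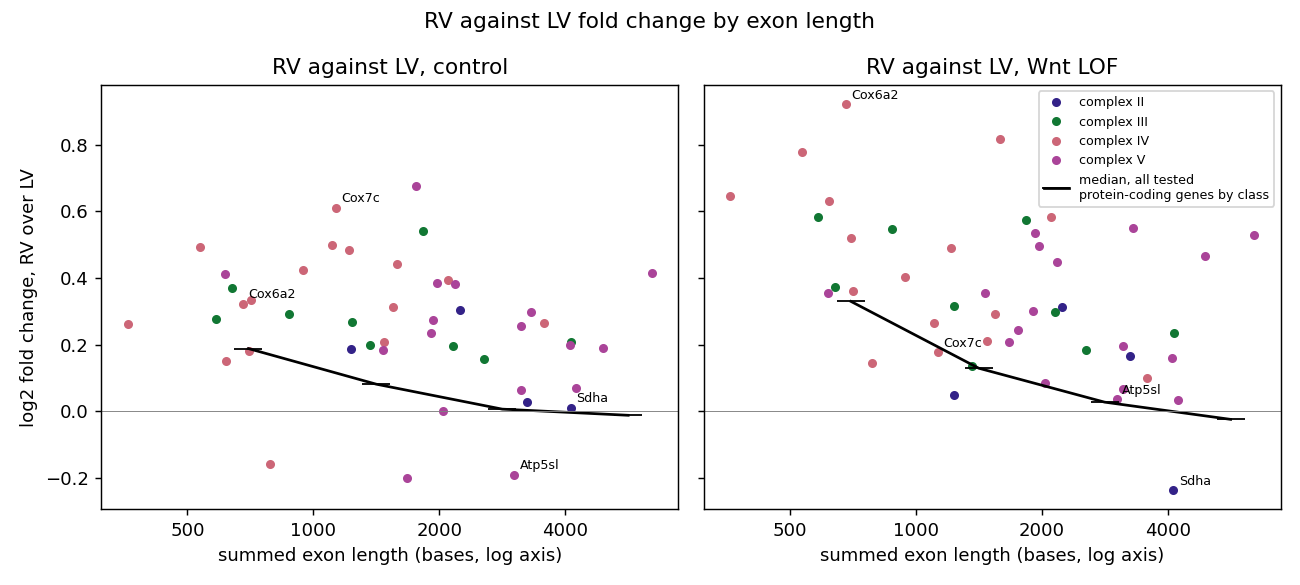
Log2 fold change of the RV over the LV against summed exon length (bases, log axis) for the 46 genes, by complex, in control and Wnt LOF hearts. The black line joins the medians of all tested protein-coding genes in 4 length classes, from 0.19 under 1 kb to -0.01 over 4 kb in control hearts and from 0.33 to -0.02 in Wnt LOF hearts. Most genes of the complexes lie above the line.

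Other genes of the respiratory pathway gave a mixed picture. Of 38 nuclear genes of complex I, the entry point for NADH electrons, 37 were above 0 in control hearts (median 0.23) and 36 in Wnt LOF hearts (median 0.36), and none was called by edgeR. Ndufs7 (0.61, SE 0.141) and Ndufs5 (0.64, SE 0.163) had the lowest p in Wnt LOF hearts, each with an adjusted p of 1. The complex I median in Wnt LOF hearts was 0.40 without both libraries labelled WntLOF 1 and 0.14 without WntLOF RV 3. The 7 mitochondrially encoded subunits tested, of 13 listed, had a median of 0.01 in control hearts and 0.51 in Wnt LOF hearts. In Wnt LOF hearts the library labelled WntLOF RV 2 held the largest share of mitochondrially encoded reads (8.29%). Without control LV 2 the median in control hearts was -0.10. Of these subunits mt-Co1, the catalytic subunit of complex IV, had a log2 fold change of 0.55 (SE 0.207) in Wnt LOF hearts. It had 25630, 28680 and 29820 CPM in the LV and 29420, 55270 and 38860 CPM in the RV. The library labelled WntLOF RV 1 lay inside the LV range, and WntLOF RV 2 was the highest. Of 20 matrix and carrier proteins, such as enzymes of the citric acid cycle, 19 were above 0 in control hearts (median 0.15) and 17 in Wnt LOF hearts (median 0.11, and 0.06 without WntLOF RV 3). Suclg1 (0.25, SE 0.0965) and fumarase, Fh1 (0.26, SE 0.117), had the lowest p in control hearts, with edgeR adjusted p-values of 0.922.

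Lists of genes that build or drive the complexes had medians nearer 0. Of 32 assembly factors 20 were above 0 in control hearts (median 0.04) and 22 in Wnt LOF hearts (median 0.05). Cmc1 (0.35, SE 0.141) and Tmem70 (0.23, SE 0.106), factors for complexes IV and V, had the lowest p in control hearts. Pet100 (0.73, SE 0.265) and Cox14 (0.42, SE 0.159), both complex IV factors, had it in Wnt LOF hearts. Of 14 regulators of respiratory gene transcription, 9 were above 0 in control hearts (median 0.04) and 4 in Wnt LOF hearts (median -0.08). Ppargc1a, which encodes the coactivator PGC-1alpha, was at 0.30 (SE 0.149) in control hearts, and the ERR gene Esrra was at -0.18 (SE 0.0847) in Wnt LOF hearts. None of these genes was called in either comparison. Without both libraries labelled WntLOF 1 or without WntLOF RV 3, the Wnt LOF median was 0.06 and 0.03 for the assembly factors and -0.10 and -0.02 for the regulators. Whether these lists differ from the complexes was not tested.

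Markers of other cell types are given beside these values, since in bulk samples fewer cells of a type and less RNA per cell cannot be told apart. The 5 erythroid markers, globins among them, had a median log2 fold change of 0.61 in control hearts with 5 of 5 above 0, and their summed level was 110 to 138 CPM in the LV libraries and 164 to 247 CPM in the RV libraries. In Wnt LOF hearts their summed level was 77.3 to 224 CPM in the LV and 89.3 to 321 CPM in the RV, with a median of 0.54, which was -0.19 without WntLOF RV 3. The 6 endothelial markers had a median of -0.17 in control hearts with 0 of 6 above 0, at 1117 to 1203 CPM in the LV and 976 to 1071 CPM in the RV. The endothelial median in Wnt LOF hearts was -0.03. The 4 smooth muscle markers had a median of -0.02 in control hearts and 0.42 in Wnt LOF hearts, where 4 of 4 were above 0, at 189 to 234 CPM in the LV and 228 to 396 CPM in the RV. The 3 atrial markers tested had a median of -0.16 in control and 1.32 in Wnt LOF hearts, which was 0.27 without WntLOF RV 3. The 6 fibroblast markers were at -0.13 and -0.19, and the 5 macrophage markers at 0.03 and 0.01. None of the cell type marker lists had a gene called by edgeR in either comparison (0% of all genes tested). The 9 cardiomyocyte markers had a median of 0.01 in control hearts with 7 of 9 above 0, and 0.15 in Wnt LOF hearts with 8 of 9. Their summed level was 162669 to 175571 CPM in the control LV and 164342 to 177550 CPM in the control RV. In Wnt LOF hearts it was 153914 to 165934 CPM in the LV and 165346 to 176243 CPM in the RV. By edgeR 3 of the 9 had an unadjusted p under 0.05 there, all higher in the RV (4.81% of all genes). In control hearts it was 1, lower in the RV (4.89% of all genes). Among these markers Myl2 ran from 1716 to 7131 CPM over the libraries. The 4 skeletal muscle markers tested had a median of -0.71 in control hearts with 0 of 4 above 0, and of 0.08 in Wnt LOF hearts with 2 of 4. Their fast myosins Myh1, Myh2 and Myh4 stayed under 1 CPM in all libraries, while Ckm (1468 to 2474 CPM) and Acta1 (37.2 to 506 CPM), which cardiac muscle also expresses, made up most of their summed level, 2258 to 2496 CPM in the control LV and 1881 to 2390 CPM in the control RV. Of the adipocyte markers Adipoq, Plin1, Cidec and Ucp1 stayed under 1 CPM in all libraries, and Fabp4, which endothelial cells also express, had a log2 fold change of -0.17 in control and -0.03 in Wnt LOF hearts. The part of cell content in the results was not tested.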

How the data were processed

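Libraries of the 4 groups were compared with the counts as the authors deposited them, raw read counts per Ensembl gene. Per the submitters' processing notes featureCounts, Subread and edgeR were used, without versions. Aligner, genome build, strand setting and the handling of shared reads: not given in the sources used here. Reads of overlapping or near-identical genes therefore cannot be told apart. The authors' deposited comparison tables hold log2 fold changes and adjusted p-values, per the file headers. The count table had 41192 rows, and 598 rows that repeat a gene were left out.

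Counts were analysed in R 4.3.3 with edgeR 4.0.16 (filterByExpr, TMM, robust quasi-likelihood fit, 1 mean per group over all 12 libraries). TMM factors ran from 0.961 to 1.04. The Benjamini-Hochberg adjustment of p-values ran over 15494 genes, with a threshold of 0.05, and the SE was the log2 fold change over the square root of F. Library deviations used log2 CPM with a prior count of 2. DESeq2 1.42.0 was an alternative. Exon lengths came from GENCODE M21 by Ensembl identifier, as the union of all annotated exons of a gene. The edgeR fit over all 12 libraries was tested on simulated counts for the 4 group comparisons, with and without the replicate block. The interaction and the other alternatives were not tested in this way.

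The members, gene lists and marker genes were chosen with earlier results of these data known. Genes were named by rule: core subunits, isoform sets, genes called with or without the replicate block, and in each comparison the 3 highest and 3 lowest with a mean log2 CPM of at least 1. Wif1, Ctnnb1, Atp5s, single markers, and members given for lack of overlap or near-zero values, were chosen after their values were seen. Deviations of equal-numbered LV and RV libraries from their group means correlated at 0.411, 0.29 and 0.517 in control hearts and 0.191, 0.197 and 0.594 in Wnt LOF hearts, all over 0.1, which was taken as pairing of the ventricles, from the data alone. In Wnt LOF hearts WntLOF LV 1 correlated more with WntLOF RV 2 (0.201) than with its own number. Between genotypes the numbers were not taken as pairs (-0.0903 to 0.306). Alternatives were DESeq2, other size factors and filters, replicate blocks, a term for Y-linked reads, the compared groups alone, and fits without certain libraries.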

Additional observations from a re-analysis of the deposited data

How the results depend on the processing

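In every comparison 0 genes of the complexes were called under other size factors, other filters, DESeq2, a term for Y-linked reads and the replicate block over all 12 libraries. The calls that appeared were 2 in control hearts with the compared groups alone and the replicate block, and 1 in Wnt LOF hearts without WntLOF RV 1. The median RV to LV difference stayed above 0 under all alternatives run, from 0.17 to 0.32 in control hearts and from 0.18 to 0.50 in Wnt LOF hearts when single libraries were left out. Depth limited the genes with few reads, such as Cox6b2 (4 to 20 reads in a library).

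The RV to LV count of genes called over the whole table in control hearts was 9 with these hearts alone, 326 with these hearts alone and the replicate block, 2 without both libraries labelled WntLOF 1 and 2 without control LV 2 as well. For 2 fits chosen after seeing the data it was 67 (the block without pair 2) and 1 (hearts alone without control LV 2). In Wnt LOF hearts it was 1 with the replicate block, 1 with the block and these hearts alone, 2 without both libraries labelled WntLOF 1 and 2 without control LV 2 as well, and leaving out single libraries gave 0 to 1 genes and 0 to 1 genes of the complexes. For the interaction it was 1 with the replicate block. The cause was not tested.

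The median Wnt LOF to control difference ran from -0.25 to 0.017 in the LV and from -0.13 to 0.118 in the RV when single libraries were left out, and that of the interaction from -0.063 to 0.23. In the RV it was 0.118 without both libraries labelled WntLOF 1 and 0.12 without control LV 2 as well. Sdha in control hearts was -0.0089 with total counts, -0.024 without control LV 2 and both libraries labelled WntLOF 1, and -0.042 and -0.025 in the 2 fits chosen later. In Wnt LOF hearts Atp5b was -0.026 and Atp5sl -0.024 with total counts. Leaving out single libraries turned the sign of Sdha in control hearts (-0.076 to 0.097), of Atp5b (-0.016 to 0.078), Atp5a1 (-0.0026 to 0.12) and Cox4i2 (-0.044 to 0.35) in Wnt LOF hearts, and of Cox6c (-0.0399 to 0.196) and Atp5e (-0.079 to 0.41) between genotypes in the LV.

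For isoform shares, in percentage points, leaving out single libraries turned 9 differences. Between genotypes in the LV these were Cox4i2 (-0.15 to 0.035), Cox7a1 (-1.78 to 0.81) and Atp5g1 (-0.24 to 1.23), and in the RV Cox6a2 (-0.70 to 0.87) and Cox8b (-2.87 to 2.28). Between ventricles they were Cox7a1 (-0.19 to 1.56) and Cox8b (-0.48 to 2.50) in control, and Cox8b (-2.78 to 2.37) and Atp5g1 (-1.16 to 0.54) in Wnt LOF. Without both libraries labelled WntLOF 1 the Atp5g1 differences were -0.16 in the LV between genotypes and 0.98 between Wnt LOF ventricles, where summed counts gave 0.22.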
